A study of Homo sapiens with 16 samples.

Results

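The genes that write, copy and remove DNA methylation were followed through treatment of 2 leukaemia lines with retinoic acid and an inhibitor of the CoREST complex. The set holds 9 genes, the methyltransferases DNMT1, DNMT3A and DNMT3B, their partner UHRF1, the dioxygenases TET1, TET2 and TET3, and the dehydrogenases IDH1 and IDH2. They were matched by symbol in the authors' table of 60603 genes, and all 9 passed the filter on low counts in both lines. RNA was measured in 16 libraries, 2 in each of 8 groups. The lines were SKNO-1, from an acute myeloid leukaemia with the RUNX1-RUNX1T1 fusion gene, and U-937, which resembles monocytes. Each was kept for 24 h with the solvent DMSO, with all-trans retinoic acid (ATRA), with Corin or with both agents, at 0.1 µM of each agent. ATRA activates the retinoic acid receptors, and Corin inhibits the demethylase LSD1 and the histone deacetylases of the CoREST complex. All cultures shared a serum-containing medium, to which GM-CSF at 10 ng/mL was added for SKNO-1 alone, so line and medium cannot be told apart. Nothing in the labels says that replicates came from separate cultures, so the p-values measure the spread between these libraries, which may be technical.

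DNA methylation in mammals is kept through cell division by DNMT1, which UHRF1 guides to newly copied DNA by binding hemimethylated sites. DNMT3A and DNMT3B place new methyl groups. The TET enzymes oxidise methylcytosine as a first step of its removal, and they need 2-oxoglutarate, which IDH1 in the cytosol and IDH2 in the mitochondrion make from isocitrate. DNMT3A, TET2, IDH1 and IDH2 are among the genes most often mutated in acute myeloid leukaemia. Only RNA levels were measured here, not methylation.

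Gene positions are given on GRCh38 from GENCODE release 44. DNMT1 (ENSG00000130816.16) lies on chromosome 19 from 10133342 to 10231286 on the minus strand, and UHRF1 (ENSG00000276043.5) on the same chromosome from 4903080 to 4962154 on the plus strand. DNMT3A (ENSG00000119772.16, chromosome 2, 25227855 to 25342590), IDH1 (ENSG00000138413.13, chromosome 2, 208236229 to 208266074) and IDH2 (ENSG00000182054.9, chromosome 15, 90083045 to 90102477) are on minus strands. DNMT3B (ENSG00000088305.18, chromosome 20, 32762385 to 32809359), TET1 (ENSG00000138336.9, chromosome 10, 68560337 to 68694487), TET2 (ENSG00000168769.13, chromosome 4, 105145875 to 105279816) and TET3 (ENSG00000187605.15, chromosome 2, 73984910 to 74108176) are on plus strands.

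Promoter sequence is shown for UHRF1 and DNMT1, the maintenance pair, because both fell sharply in U-937 with both agents, as described below. RefSeq (GRCh38.p14) gave 21 windows of 250 bases before a transcript start for the 9 genes. Both strands were searched for TTNNCGC, a loose form of the core bound by E2F factors, for CCAAT, the box bound by NF-Y, and for AGGTCA, the half-site of retinoic acid receptors. The first lines are the stretches of the UHRF1 windows outside annotated exons that hold a match, and the last are the 30 bases before a start of UHRF1 and of DNMT1 that lie in an exon of a longer transcript. Capitals mark TTNNCGC on either strand, the coordinates are on GRCh38.p14, UHRF1 reads on the plus strand and DNMT1 on the minus strand.
UHRF1 chr19:4909251-4909429: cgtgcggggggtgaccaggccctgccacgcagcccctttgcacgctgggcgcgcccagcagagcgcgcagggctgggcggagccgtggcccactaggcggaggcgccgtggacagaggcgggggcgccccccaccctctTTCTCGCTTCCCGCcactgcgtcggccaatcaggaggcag
UHRF1 chr19:4909894-4910143: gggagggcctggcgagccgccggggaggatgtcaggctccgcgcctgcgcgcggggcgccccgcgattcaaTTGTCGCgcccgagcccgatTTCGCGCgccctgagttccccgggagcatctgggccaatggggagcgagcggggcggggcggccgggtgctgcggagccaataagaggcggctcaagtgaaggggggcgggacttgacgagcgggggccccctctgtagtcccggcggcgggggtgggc
UHRF1 chr19:4909471-4909500: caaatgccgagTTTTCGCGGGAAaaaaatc
DNMT1 chr19:10194954-10194983: cgctcatcgcccctccccatcggTTTCCGC

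UHRF1 held 6 matches of TTNNCGC in 2 of its 3 windows, among them the overlapping pair on opposite strands in the 30-base line, and 3 matches of CCAAT. DNMT1 held 1 match of TTNNCGC, which ends at the start, and none of CCAAT. TET2, TET3 and IDH1 held 1 match of TTNNCGC each, and DNMT3A, DNMT3B, TET1 and IDH2 held none. All windows of DNMT1, UHRF1, DNMT3B, IDH1 and IDH2 lay inside the gene, so the sequence before its GENCODE start was not searched. For DNMT3B and IDH2 the lack of a match thus holds for an inner start alone. CCAAT was found 4 times in the windows of TET1, 2 times in those of IDH1 and 1 time each in those of TET3 and DNMT3B, and AGGTCA 2 times in those of DNMT3A and 1 time in those of TET1. Windows of a gene can overlap. The 2 AGGTCA matches of DNMT3A are the same site seen in 2 windows, as are 2 of the 4 CCAAT matches of TET1. Counted by gene, over all windows of a gene, 25.0% of 27305 RefSeq genes held TTNNCGC, 37.0% CCAAT and 14.6% AGGTCA, and counted by window 21.7%, 32.0% and 12.1% of 35116, and no match of the first overlapped a match of the second in the sequences shown. These are letters found in a window, and binding was not measured. TTNNCGC contains CG, and the background shares are not matched for CG content. The 2 UHRF1 windows with a match held 28 and 32 CG dinucleotides, against a median of 11 over all windows.

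Library totals ran from 28.4 to 37.8 M estimated counts. The SKNO-1 DMSO libraries stood apart from each other, with an SD of 0.354 for their log2 difference over 9306 well-expressed genes against 0.112 to 0.198 in the other groups, and that difference correlated with GC content over these genes at r = 0.79 (-0.43 to 0.58 in the other groups). Every SKNO-1 comparison against DMSO carries that spread, and those without DMSO share in it, since the 8 libraries have 1 estimate of the spread. Values without 1 DMSO library or with the GC trend removed are therefore given for these comparisons where they change a call. A fit without 1 DMSO library takes no spread from that group. A call gained in such a fit thus ignores the difference between the 2 DMSO libraries. The identity genes fitted the labels, since RUNX1T1 was at 95.4 to 155 CPM in SKNO-1 and had 2 counts over all U-937 libraries, and HOXA9 had 0 counts in SKNO-1. Of the myeloid markers SPI1, PTPRC, CD33 and CEBPA were present in both lines, MPO was near 0 in U-937, and markers of B, T, erythroid, epithelial and stromal cells reached at most 3.11 CPM in any library.

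In DMSO, IDH2 and DNMT1 were the most abundant members in SKNO-1, and IDH1, DNMT1 and IDH2 in U-937. Levels between genes are compared in TPM, the authors' abundance per transcript length. In SKNO-1 with DMSO, IDH2 was at 99.2 and 99.2 TPM, DNMT1 at 66.6 and 101 and IDH1 at 30.5 and 45.5. TET2 (10.3 and 17.9 TPM), UHRF1 (12.1 and 15.1) and DNMT3A (10.4 and 12.7) overlapped their neighbours in this order, as TET1 (4.31 and 8.69) did TET3 (4.79 and 7.55), and DNMT3B was lowest at 0.80 and 1.14 TPM. In U-937 with DMSO, IDH1 was at 137 and 157 TPM, DNMT1 at 123 and 122, IDH2 at 109 and 106 and UHRF1 at 23.4 and 24.2. The other members were much lower there, TET3 at 7.04 and 6.78, DNMT3A at 6.19 and 7.27, DNMT3B at 4.47 and 5.07, TET2 at 4.56 and 4.56 and TET1 at 1.94 and 1.93 TPM. TET3 and DNMT3A overlapped, and so did DNMT3B and TET2. The place of DNMT1 depends on its effective length, which RSEM set at 1666 to 2090 bases by weighting its transcripts. The gene S1PR2 lies within DNMT1 on the same strand and had at most 6.88% of its count.

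The untreated lines differed in 7 of the 9 genes. From here on levels are CPM, counts scaled to a common library total by TMM, a change is a log2 fold change with its standard error (SE), and a gene is called changed where edgeR's quasi-likelihood test gave a Benjamini-Hochberg adjusted p under 0.05 over all genes tested. In the 16-library fit 64.8% of all genes were called between the untreated lines, 31.7% higher in U-937 and 33.1% lower, against 4 and 3 of the 9 members (77.8% together). DNMT3B, at 4.56 and 4.48 CPM in SKNO-1 and 17.6 and 19.4 in U-937, was higher in U-937 by 2.03 (SE 0.15, adjusted p = 3.18e-10). IDH1 was higher there by 1.59 (SE 0.09), UHRF1 by 0.47 (SE 0.09) and DNMT1 by 0.35 (SE 0.08). TET2, at 112 and 148 CPM in SKNO-1 and 29.3 and 31.6 in U-937, had a log2 difference of -2.10 (SE 0.12, adjusted p = 9.98e-12). TET1 had one of -2.03 (SE 0.13) and DNMT3A one of -0.45 (SE 0.09). TET3 (-0.05, SE 0.11) and IDH2 (-0.22, SE 0.11, adjusted p = 0.0921) were not called, although IDH2 was called at -0.42 without SKNO-1 DMSO replicate 2, at -0.35 with the GC trend removed and at -0.24 without the low-count filter.

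With both agents, U-937 had 7.35-fold less UHRF1, 5.35-fold less TET1, 4.77-fold less DNMT1, 2.90-fold less IDH2 and 2.85-fold less DNMT3B RNA, and TET2, IDH1 and DNMT3A rose. In that comparison with DMSO, 8 of the 9 genes (88.9%) were called, 3 higher and 5 lower. Of all genes tested 65.3% were called, 33.1% higher and 32.2% lower, so a call alone sets no member apart there. As to size, 6.69% of all genes changed by more than UHRF1 in either direction, 9.73% by more than TET1, 11.2% by more than DNMT1, 22.1% by more than IDH2 and 22.8% by more than DNMT3B. ATRA alone called 7 members in U-937, 4 higher and 3 lower, against 41.8% of all genes (21.7% higher, 20.1% lower). Corin alone called 2, 1 higher and 1 lower, against 12.9% (8.55% and 4.4%). It called fewer without either U-937 DMSO library or Corin replicate 1. In SKNO-1 no member changed by as much as 1 on the log2 scale against DMSO. ATRA called 1 member higher and 1 lower there, against 6.76% of all genes (2.96% and 3.79%). Corin called 2 higher and 4 lower, against 37.9% (20.5% and 17.3%), and both agents 2 higher and 3 lower, against 46.7% (24.7% and 22%). With 1 SKNO-1 library left out, ATRA called more members without either DMSO library and fewer without any other library. Corin and both agents called fewer without any 1 treated library. Shares of all genes called in such fits are not given here, so these shifts show only that calls were not stable. The 3 comparisons of a line share its DMSO libraries.

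**Figure D1:**
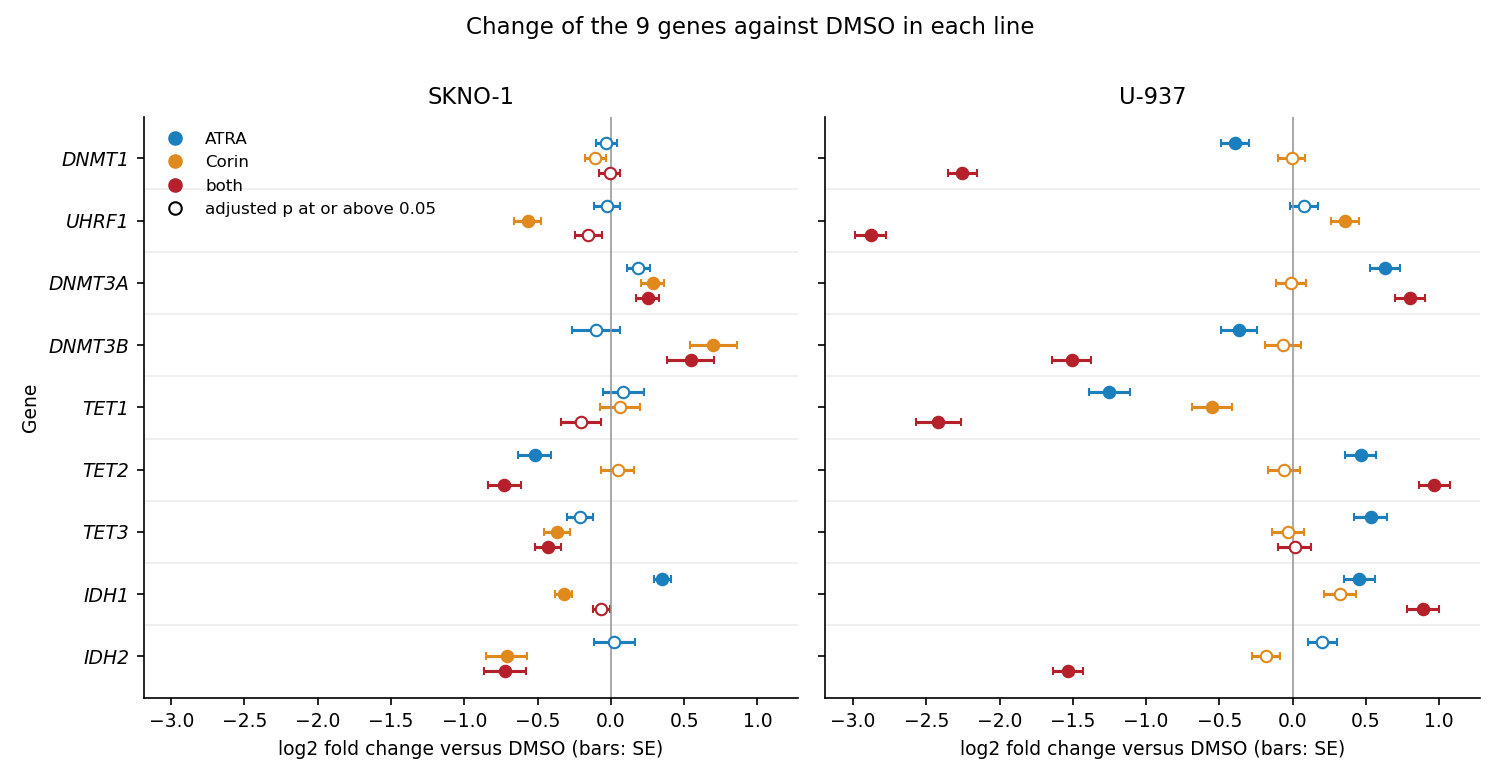
Log2 fold change against DMSO (x axis) of each of the 9 genes in SKNO-1 (left) and U-937 (right) with ATRA, Corin or both agents; bars are the SE and open circles did not reach an adjusted p under 0.05. In U-937 the values with both agents run from -2.88 for UHRF1 to 0.97 for TET2, and in SKNO-1 all values lie between -0.73 and 0.70.

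Both genes of the maintenance pair fell in U-937 with the combination, and neither fell by as much as 1 on the log2 scale with either agent alone. DNMT1 was at 253 and 242 CPM with DMSO, 192 and 185 with ATRA, 246 and 247 with Corin, and 52.1 and 51.7 with both agents in U-937. The libraries with both agents lay far below all others, the ATRA libraries lay between, and the Corin libraries lay within the DMSO range. The change was -2.25 (SE 0.10, adjusted p = 1.71e-15), a 4.77-fold fall, with both agents and -0.39 (SE 0.09, adjusted p = 0.00144) with ATRA. With Corin it was -0.01 (SE 0.09). In RNA from a whole culture, fewer cells that express a gene and less of its RNA per cell cannot be told apart.

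UHRF1, the reader of hemimethylated DNA that recruits DNMT1, was at 91.1 and 91.6 CPM with DMSO in U-937, 93.8 and 98.7 with ATRA, 114 and 119.8 with Corin, and 13.0 and 11.9 with both agents. Corin alone thus gave the highest libraries and the combination the lowest, with no overlap between any of these and DMSO. UHRF1 rose by 0.35 with Corin (SE 0.10, adjusted p = 0.0128) and fell by 2.88 with both agents (SE 0.11, adjusted p = 8.32e-17), a 7.35-fold fall. The rise with Corin was not called without U-937 DMSO replicate 1, DMSO replicate 2 or Corin replicate 2 (adjusted p 0.0725 to 0.0919), nor with the replicate block and the GC trend removed together (0.25, adjusted p = 0.0579). Estimated UHRF1 counts were fractional in all 16 libraries as RSEM gives where reads fit more than 1 place, so its values are less certain than those of DNMT1, whose counts were whole.

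In SKNO-1 the DNMT1 result depended on the DMSO libraries. It was at 189 and 166 CPM with DMSO, 170.5 and 177 with ATRA, 166 and 164 with Corin, and 173 and 180.1 with both agents. The ATRA libraries and those with both agents lay within the DMSO range and Corin replicate 2 just below it, and edgeR called no change (-0.03 with ATRA, -0.11 with Corin and -0.01 with both agents, each SE 0.07). Without SKNO-1 DMSO replicate 2 the DNMT1 change was -0.16 with ATRA, -0.22 with Corin and -0.11 with both agents. The 2 DMSO libraries themselves differed by 0.19 on the log2 scale. Removal of the GC trend gave a called fall of DNMT1 with both agents (-0.24, adjusted p = 0.00105). UHRF1 was at 64.8 and 56.2 CPM with DMSO, 57.0 and 62.0 with ATRA, 42.5 and 39.0 with Corin, and 54.4 and 54.5 with both agents. Only its fall with Corin was called (-0.57, SE 0.09, adjusted p = 0.00201), and it was called under all 15 alternatives. With both agents the UHRF1 change was -0.15 (SE 0.09, adjusted p = 0.200), and -0.26 without SKNO-1 DMSO replicate 2. It was called at -0.36 (adjusted p = 0.000223) with the GC trend removed. Its level with both agents was 0.42 higher (SE 0.09, adjusted p = 0.0278) than with Corin alone. That last call was lost without any 1 of the 6 treated SKNO-1 libraries (adjusted p 0.0546 to 0.196) and with the replicate block (adjusted p = 0.0539).

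**Figure D2:**
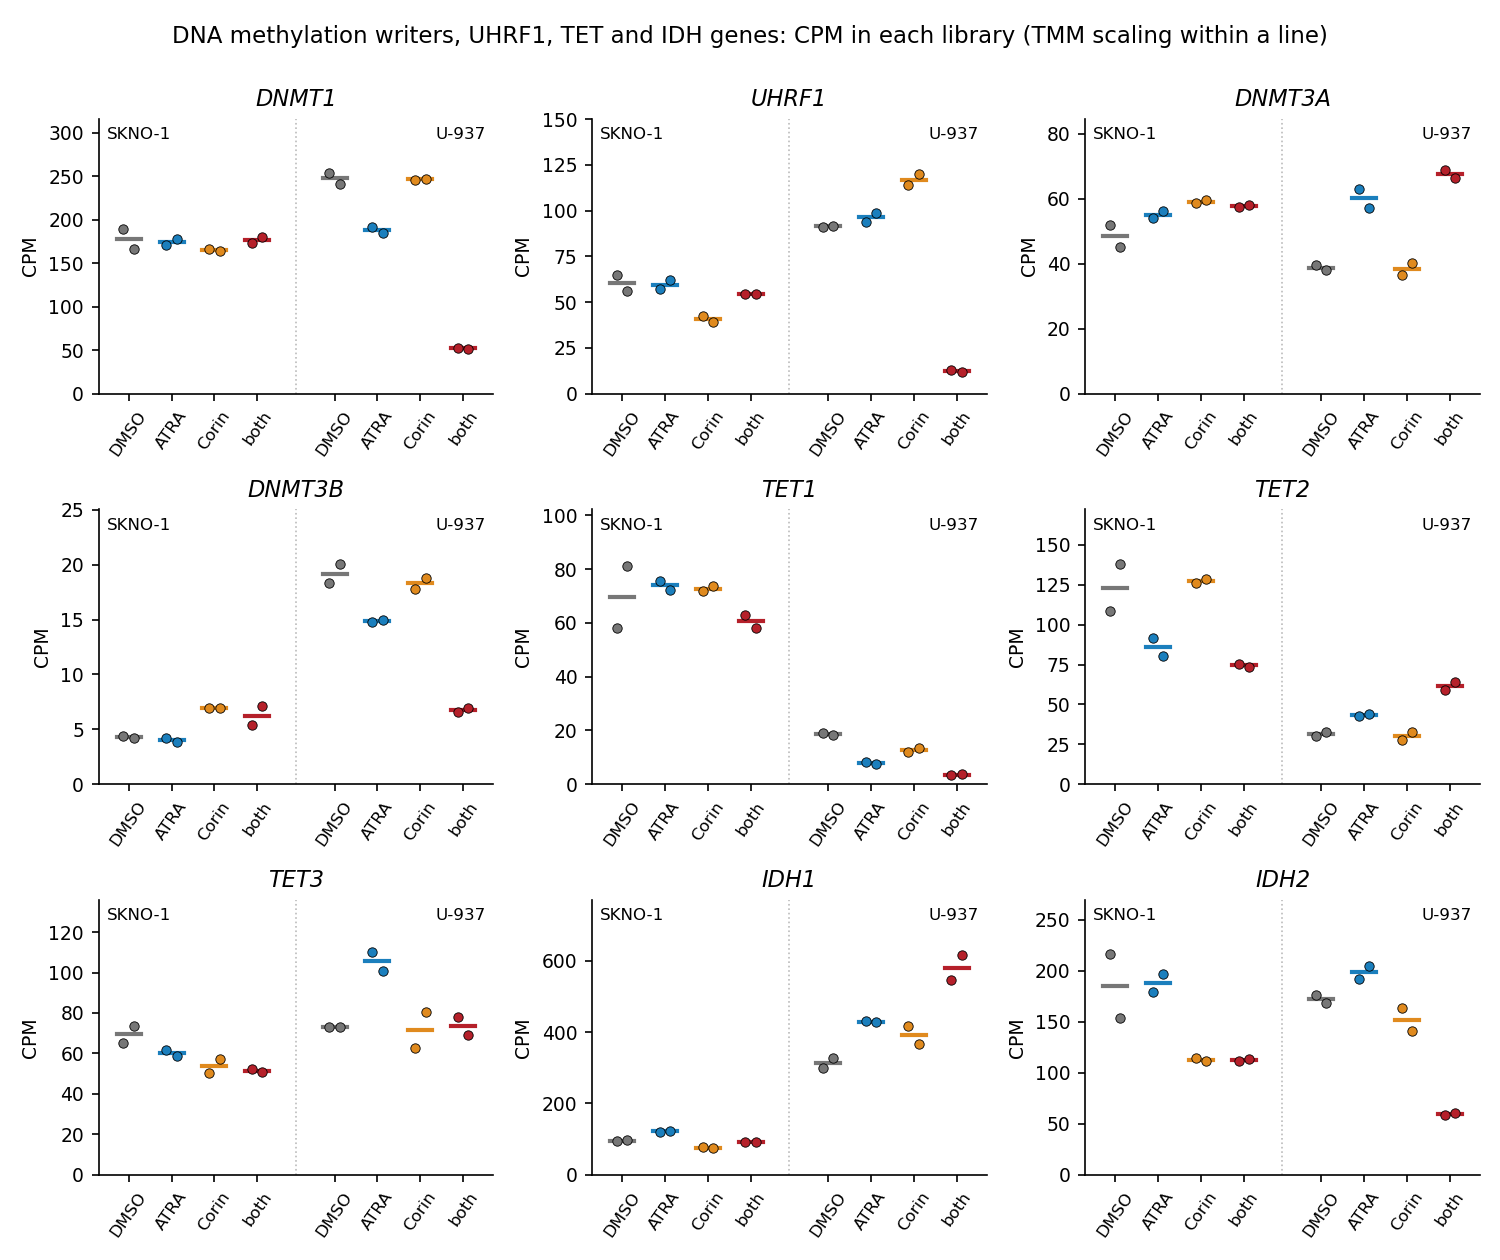
CPM of each gene (y axes start at 0) in the 16 libraries by treatment (x axis), SKNO-1 left and U-937 right of the dotted line; points are libraries and bars the mean of 2. In U-937 with both agents DNMT1 sits at 52.1 and 51.7 and UHRF1 at 13.0 and 11.9, below all their other libraries.

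The fall of DNMT1 and UHRF1 in U-937 went with a fall of the proliferation list. This list of 20 genes of the cell cycle and of DNA replication summed to 6012 to 6256 CPM with DMSO in U-937, 6111 to 6263 with ATRA, 5497 to 5898 with Corin and 1265 to 1519 with both agents. All 20 were called lower with both agents, where 65.3% of all genes were called and 32.2% were lower. Their median was -2.23 against 0.03 for all genes. ATRA called 5 higher and 6 lower, where 41.8% of all genes were called. Corin called 0 of the 20, where 12.9% of all genes were called, and the median with Corin was -0.08. In SKNO-1 the sums were 4263 to 4299 CPM with DMSO, 4274 to 4312 with ATRA, 3539 to 3626 with Corin and 3512 to 3519 with both agents, with 13 genes lower and 1 higher with Corin (37.9% of all genes called) and 10 lower and 2 higher with both (46.7%). The part of proliferation in the changes of DNMT1, UHRF1, DNMT3B and IDH2 was not tested.

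**Figure D3:**
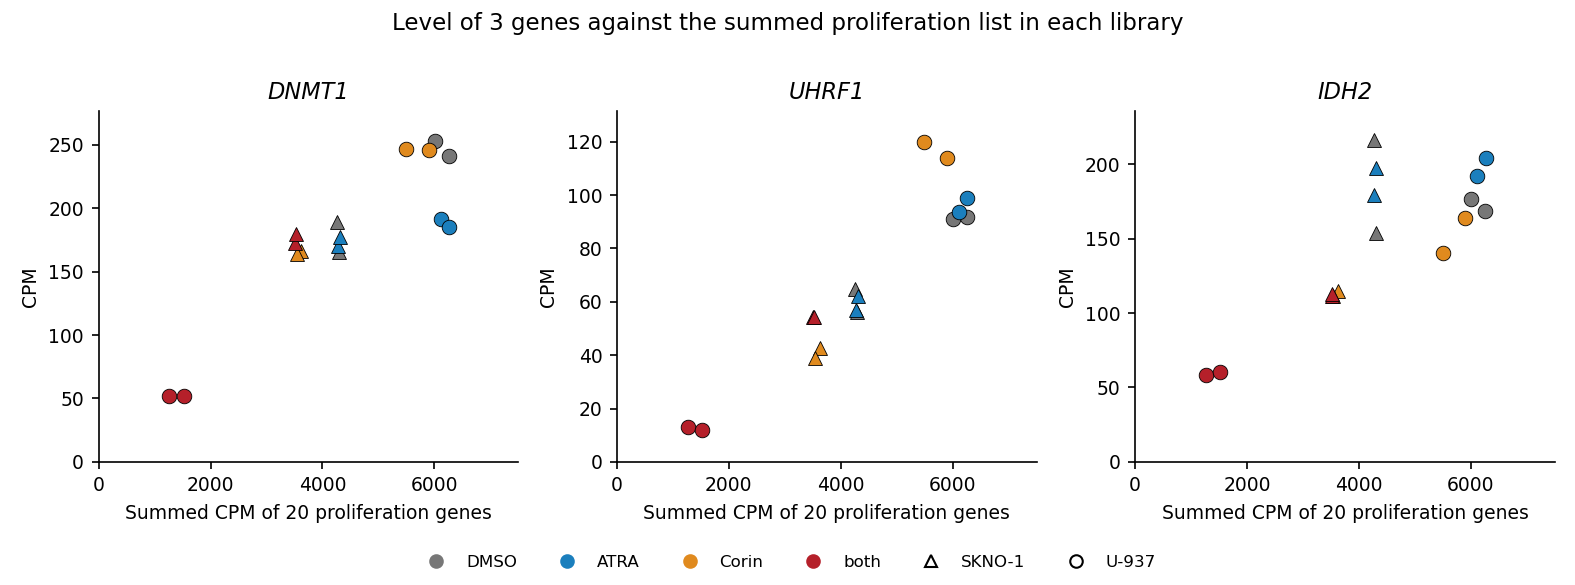
CPM of DNMT1, UHRF1 and IDH2 (y axes) against the summed CPM of the 20 proliferation genes (x axis) in each library; triangles are SKNO-1, circles U-937, colours treatments. The 2 U-937 libraries with both agents lie alone at 1265 and 1519 summed CPM and are lowest for all 3 genes.

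The de novo enzymes moved in opposite directions in U-937. DNMT3A was at 39.5 and 38.0 CPM with DMSO there, 63.0 and 57.2 with ATRA, 36.5 and 40.3 with Corin, and 68.9 and 66.3 with both agents. Every library that received ATRA was above every library that did not. The change was 0.63 (SE 0.10, adjusted p = 2.16e-05) with ATRA and 0.80 (SE 0.10, adjusted p = 2.61e-07) with both agents, and the step from ATRA to both, 0.17 (SE 0.10, adjusted p = 0.170), was called only with the GC trend removed (0.24, adjusted p = 0.0279, and 0.0471 with the replicate block as well). DNMT3B was at 18.3 and 20.1 CPM with DMSO, 14.8 and 15.0 with ATRA, 17.8 and 18.8 with Corin, and 6.57 and 6.91 with both agents. DNMT3B thus fell by 0.37 with ATRA (SE 0.12, adjusted p = 0.0188) and by 1.51 with both agents (SE 0.13, adjusted p = 4.55e-10). The ATRA call was lost without U-937 DMSO replicate 2 or either ATRA library (adjusted p 0.0854 to 0.147).

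In SKNO-1 both de novo enzymes were slightly higher with Corin. DNMT3B, a low gene in this line, was at 4.40 and 4.19 CPM with DMSO, 4.20 and 3.81 with ATRA, 6.98 and 6.96 with Corin, and 5.42 and 7.08 with both agents. The libraries with Corin did not overlap those without it. DNMT3B rose by 0.70 with Corin (SE 0.16, adjusted p = 0.0108) and by 0.54 with both agents (SE 0.16, adjusted p = 0.0252). DNMT3A was at 51.8 and 45.0 CPM with DMSO, 53.9 and 56.2 with ATRA, 58.6 and 59.5 with Corin, and 57.3 and 57.9 with both agents. DNMT3A rose by 0.29 with Corin (SE 0.08, adjusted p = 0.0227) and by 0.25 with both agents (SE 0.08, adjusted p = 0.0312), and the 0.19 with ATRA was not called (adjusted p = 0.262) except without SKNO-1 DMSO replicate 1 (0.24, adjusted p = 0.00363). These SKNO-1 calls were not stable. The DNMT3A calls were lost without any 1 of the 6 treated SKNO-1 libraries (adjusted p 0.0534 to 0.125 with Corin and 0.0681 to 0.148 with both agents), the DNMT3B call with Corin without either Corin library (adjusted p 0.0632 to 0.0647) and that with both agents without Corin replicate 1 or 2 or combination replicate 2 (adjusted p 0.0529 to 0.207). With the GC trend removed the DNMT3A change with both agents was 0.07 (adjusted p = 0.244) and that of DNMT3B 0.34 (adjusted p = 0.0769). DESeq2 did not call either (adjusted p = 0.0697 and 0.0617), nor did edgeR on the 4 libraries compared alone (0.125 and 0.0944), which did not call DNMT3A with Corin either (0.109). DNMT3A with both agents was also lost without the low-count filter (0.0524) and with the replicate block (0.0532).

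TET1 fell in U-937 with each agent and fell furthest with both. It was at 19.0 and 18.3 CPM with DMSO, 8.25 and 7.44 with ATRA, 12.2 and 13.4 with Corin, and 3.31 and 3.68 with both agents. The 4 groups did not overlap. The change was -1.25 (SE 0.14, adjusted p = 1.37e-07) with ATRA, -0.55 (SE 0.14, adjusted p = 0.00769) with Corin and -2.42 (SE 0.15, adjusted p = 1.56e-12) with both agents, a 5.35-fold fall. The Corin call was lost without U-937 DMSO replicate 1 or Corin replicate 1 (adjusted p 0.0679 to 0.0762).

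TET2, the TET gene most often mutated in myeloid leukaemia, was at 30.4 and 32.7 CPM with DMSO in U-937, 42.7 and 44.3 with ATRA, 27.8 and 32.8 with Corin, and 59.2 and 64.0 with both agents. The libraries with both agents were highest, those with ATRA next, and Corin overlapped DMSO. TET2 rose by 0.46 with ATRA (SE 0.11, adjusted p = 0.00116) and by 0.97 with both agents (SE 0.11, adjusted p = 2.99e-08), a 1.95-fold rise. TET3 was at 73.0 and 73.2 CPM with DMSO, 110.2 and 101 with ATRA, 62.8 and 80.4 with Corin, and 78.2 and 69.3 with both agents. Only ATRA alone set TET3 apart, with a rise of 0.53 (SE 0.11, adjusted p = 0.000426). With both agents its change was 0.01 (SE 0.11, adjusted p = 0.923), and it was 0.52 lower than with ATRA alone (-0.52, SE 0.11, adjusted p = 0.000439).

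In SKNO-1 TET2 fell with ATRA and with both agents, and TET3 with Corin and with both agents. TET2 was at 108 and 138 CPM with DMSO, 91.3 and 80.5 with ATRA, 126 and 129 with Corin, and 75.6 and 73.3 with both agents. Both groups with ATRA were below DMSO, and Corin lay inside the DMSO range. TET2 fell by 0.73 with both agents (SE 0.11, adjusted p = 0.00141), a call made under all 15 alternatives, and by 0.52 with ATRA (SE 0.11, adjusted p = 0.0322), a call lost without any 1 of the 6 treated libraries (adjusted p 0.0786 to 0.203), with unscaled library totals (0.0582), with the replicate block (0.0672) and on the 4 libraries alone (0.246). With Corin TET2 was not called on all 8 libraries, and its change was 0.22 without SKNO-1 DMSO replicate 2. TET3 was at 65.0 and 73.8 CPM with DMSO, 61.6 and 58.6 with ATRA, 50.3 and 57.2 with Corin, and 52.2 and 50.9 with both agents. TET3 fell by 0.37 with Corin (SE 0.09, adjusted p = 0.0138), lost without Corin replicate 1 (adjusted p = 0.107), with unscaled library totals (0.0538) and on the 4 libraries alone (0.0793), and by 0.43 with both agents (SE 0.09, adjusted p = 0.00547), called under all 15 alternatives. Without SKNO-1 DMSO replicate 1 the TET3 change with ATRA was -0.34. TET1 was at 58.1 and 81.3 CPM with DMSO, 75.7 and 72.3 with ATRA, 71.7 and 73.8 with Corin, and 62.8 and 58.3 with both agents. The DMSO libraries spanned all other TET1 values, and edgeR called no TET1 change on all 8 libraries. With ATRA and with Corin it was called in opposite directions as 1 DMSO library or the other was left out, at 0.31 with each agent without replicate 2 and at -0.18 with each without replicate 1. With the combination the TET1 change was -0.44 without replicate 1, while the 2 DMSO libraries themselves differed by 0.48 on the log2 scale.

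The isocitrate dehydrogenases parted in U-937. IDH1, the cytosolic enzyme, was at 299 and 328 CPM with DMSO, 429.9 and 429 with ATRA, 417 and 366 with Corin, and 545 and 615 with both agents. All treated libraries were above both DMSO libraries, and those with both agents were highest. IDH1 rose by 0.46 with ATRA (SE 0.11, adjusted p = 0.00148) and by 0.89 with both agents (SE 0.11, adjusted p = 1.42e-07), and the 0.32 with Corin (SE 0.11, adjusted p = 0.0523) was not called in the edgeR test, although DESeq2 (adjusted p = 0.0264), unscaled library totals (0.00906), the GC trend removed (0.0114) and the 4 libraries alone (0.0193) called it, as did edgeR without Corin replicate 2 or either combination library (0.0297 to 0.0303). IDH2, the mitochondrial enzyme, was at 177 and 168 CPM with DMSO, 192 and 204 with ATRA, 164 and 140.5 with Corin, and 58.7 and 60.4 with both agents. IDH2 stayed near its DMSO level with either agent alone (0.20, SE 0.10, and -0.18, SE 0.10, neither called, though Corin was at -0.30 with the GC trend removed, adjusted p = 0.0133) and fell by 1.54 with both (SE 0.10, adjusted p = 3.48e-12), a 2.90-fold fall.

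In SKNO-1 IDH2 was lower wherever Corin was present. It was at 217 and 154 CPM with DMSO, 179 and 197 with ATRA, 115 and 111 with Corin, and 111 and 113 with both agents. The DMSO pair enclosed the ATRA libraries, and all 4 libraries with Corin were below the lower DMSO library. IDH2 fell by 0.71 with Corin (SE 0.14, adjusted p = 0.00561) and by 0.72 with both agents (SE 0.14, adjusted p = 0.00392), the first lost without Corin replicate 2 (adjusted p = 0.0527). With ATRA IDH2 was called at 0.25 without SKNO-1 DMSO replicate 1 and at -0.24 without replicate 2. IDH1 was at 93.4 and 97.3 CPM with DMSO, 120.5 and 123 with ATRA, 78.4 and 74.2 with Corin, and 90.7 and 91.8 with both agents. ATRA raised it by 0.35 (SE 0.06, adjusted p = 0.00922), Corin lowered it by 0.32 (-0.32, SE 0.06, adjusted p = 0.00392), and with both agents its change was -0.06 (SE 0.06, adjusted p = 0.404). The ATRA call was lost without either ATRA library (adjusted p 0.114 to 0.157) and on the 4 libraries alone (0.168), as was the Corin call on 4 libraries (0.0542).

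Whether the agents together did more than the sum of each alone was asked with the departure from additivity, the log2 change with both agents minus the changes with ATRA and with Corin. In U-937, 7 of the 9 genes departed, 1 higher and 6 lower, where 23.4% of all genes did (8.09% higher, 15.3% lower). UHRF1 had single changes that summed to 0.43 and a change of -2.88 with both, a departure of -3.31 (SE 0.14, adjusted p = 3.10e-13) that 1.08% of all genes exceeded in size. DNMT1 departed by -1.85 (SE 0.13, adjusted p = 2.77e-10), IDH2 by -1.55 (SE 0.14, adjusted p = 1.01e-08) and DNMT3B by -1.07 (SE 0.18, adjusted p = 7.33e-05). These 4 fell with the combination far beyond the sums of 0.43, -0.40, 0.02 and -0.44 that the single changes gave. TET2 departed upward by 0.56 (SE 0.15, adjusted p = 0.00786). TET3 departed by -0.49 (SE 0.16, adjusted p = 0.0256) and TET1 by -0.62 (SE 0.21, adjusted p = 0.0330), and for TET1 the single changes already summed to -1.80, against -2.42 with both. DNMT3A (0.18, SE 0.14, adjusted p = 0.403) and IDH1 (0.11, SE 0.15, adjusted p = 0.662) did not pass the test. The TET1 call was lost without any 1 of 6 of the 8 U-937 libraries (all but Corin replicate 1 and combination replicate 2; adjusted p 0.0576 to 0.148), and the TET3 call without either DMSO library, ATRA replicate 1, Corin replicate 2 or combination replicate 2 (adjusted p 0.0664 to 0.169). TET1 was also lost with DESeq2 (0.0765) and with block and GC trend together (0.0557), and TET3 with unscaled library totals (0.101) and with the GC trend removed (-0.33, adjusted p = 0.176), where DNMT3A was called (0.35, adjusted p = 0.0478).

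In SKNO-1 edgeR called no departure among the 9 genes (0 by DESeq2 too, and 1, UHRF1, at an unadjusted p under 0.05), and 0.463% of all genes departed (0.315% higher, 0.149% lower). The largest value was that of UHRF1, 0.44 (SE 0.13, adjusted p = 0.222). It was called without the low-count filter (0.47, adjusted p = 0.0198), and DNMT3A was called with the GC trend removed (-0.36, adjusted p = 0.0160). Leaving out 1 SKNO-1 DMSO library moved members across the threshold. UHRF1 passed it without either library (0.39 to 0.59). Without replicate 1 DNMT3A passed it at -0.27, and without replicate 2 DNMT1 at 0.27, TET1 at -0.56 and TET2 at -0.39. IDH2 passed it in opposite directions, at -0.25 without replicate 1 and at 0.24 without replicate 2.

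**Figure D4:**
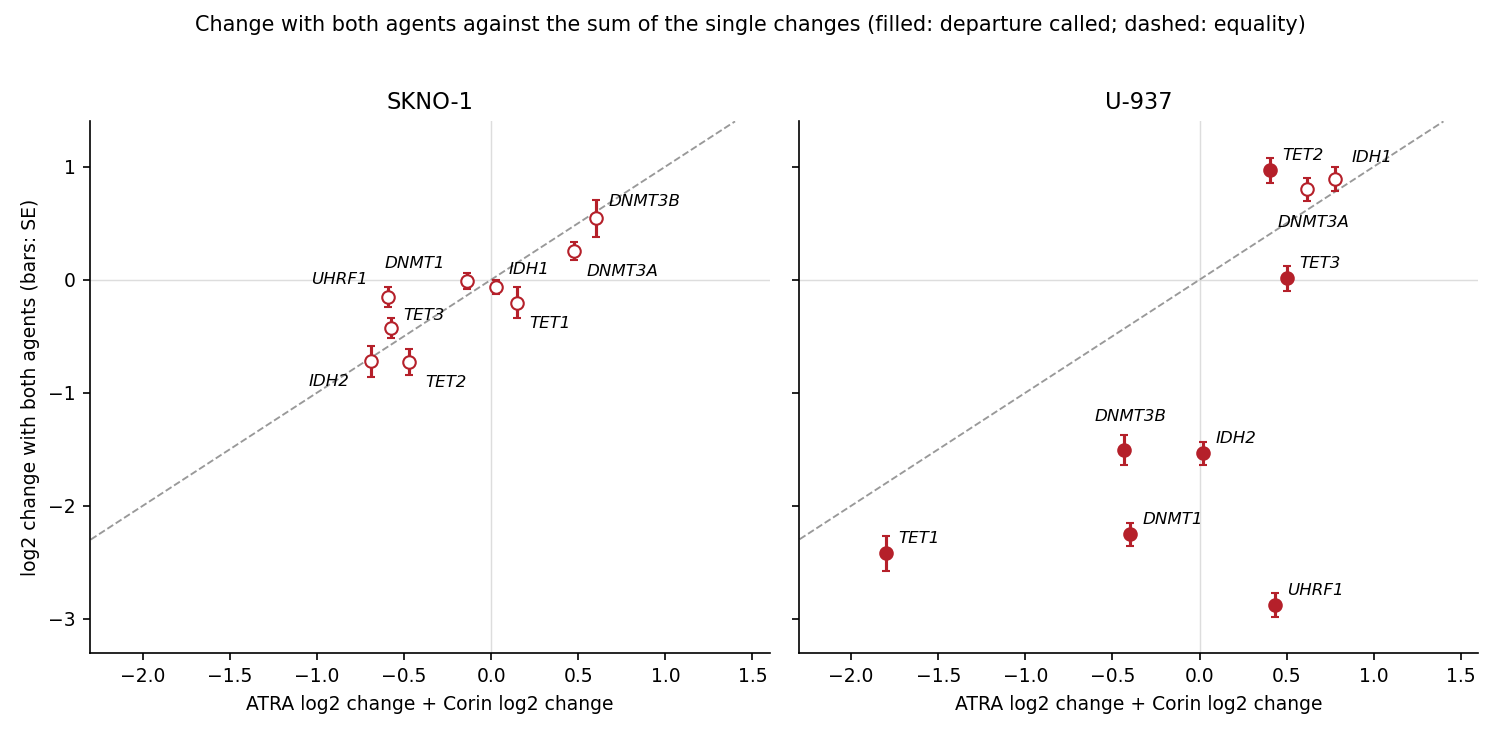
Log2 change with both agents (y axis, bars are the SE) against the sum of the changes with ATRA and with Corin (x axis) for each gene in SKNO-1 (left) and U-937 (right); the dashed line is equality, and filled points departed from additivity at an adjusted p under 0.05. In U-937 UHRF1 lies 3.31 below the line and TET2 0.56 above it, and in SKNO-1 no point is filled.

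Set against one agent alone, the combination in U-937 called 2 members higher and 6 lower against ATRA (47.4% of all genes, 22.5% higher and 24.8% lower) and 3 higher and 5 lower against Corin (60.5%, 29.9% and 30.6%). UHRF1 was lower by 7.75-fold than with ATRA and by 9.41-fold than with Corin, DNMT1 by 3.63-fold and 4.75-fold, and IDH2 by 3.33-fold and 2.55-fold. TET2 was higher by 1.42-fold and 2.04-fold and IDH1 by 1.35-fold and 1.48-fold. In SKNO-1 the combination called 3 members against ATRA (44.8% of all genes, 23% higher and 21.8% lower), with DNMT3B higher by 0.64 (SE 0.16) and IDH1 (-0.42, SE 0.06) and IDH2 (-0.75, SE 0.14) lower. The DNMT3B call was lost without ATRA replicate 2 or combination replicate 2 (0.43 to 0.61). Without either DMSO library TET1 (-0.26), TET2 (-0.17) and TET3 (-0.19) passed the threshold too. With the GC trend removed UHRF1 (-0.30) and DNMT1 (-0.17) were called lower than with ATRA. Against Corin it called 3 (10.4%, 4.82% higher and 5.6% lower), with UHRF1 (0.42) and IDH1 (0.26, SE 0.06) higher and TET2 lower (-0.77, SE 0.11, adjusted p = 0.00556). With the GC trend removed DNMT3A (-0.20) and IDH2 (-0.24) were called lower than with Corin. The IDH1 and UHRF1 calls were lost without any 1 of the 6 treated libraries (0.21 to 0.30 for IDH1, 0.35 to 0.48 for UHRF1). DESeq2 (adjusted p = 0.0534), unscaled library totals (0.122) and the replicate block (0.0725) did not call IDH1 either. The TET2 call was lost without any 1 of the 4 libraries with Corin (-0.80 to -0.75). Without either DMSO library DNMT1 (0.11) and TET1 (-0.26) passed the threshold too.

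The shares within each family can be read inside a library. In TPM, DNMT1 made up 92.0 and 90.8% of the summed DNMT genes in U-937 with DMSO, 87.5 and 86.8% with ATRA, 90.7 and 90.7% with Corin, and 64.5 and 68.5% with both agents. DNMT3A rose over the same groups from 4.63 and 5.41% to 31.8 and 27.4%, and DNMT3B stayed between 2.99 and 4.13%. In SKNO-1 DNMT1 held 82.7 to 88.0% in every library. TET1 was 14.3 and 14.5% of the summed TET genes in U-937 with DMSO and 2.00 and 2.40% with both agents, whereas in SKNO-1 it was 22.2 to 31.2% in all libraries. The ratio of summed DNMT to summed TET TPM was 9.87 and 10.1 in U-937 with DMSO, 6.90 and 6.89 with ATRA, 11.7 and 9.78 with Corin, and 2.54 and 2.64 with both agents. IDH1 over IDH2 went from 1.26 and 1.48 with DMSO to 7.16 and 7.87 with both agents in U-937. In SKNO-1 it was below 1 in every library, between 0.307 and 0.623. In U-937 with both agents the rises of IDH1 and DNMT3A were smaller in TPM than in CPM. IDH1 went from 137 and 157 TPM with DMSO to 194 and 191, and DNMT3A from 6.19 and 7.27 to 10.45 and 7.83. All values of this paragraph in TPM are descriptions, with no test, and they rest on RSEM's effective lengths.

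**Figure D5:**
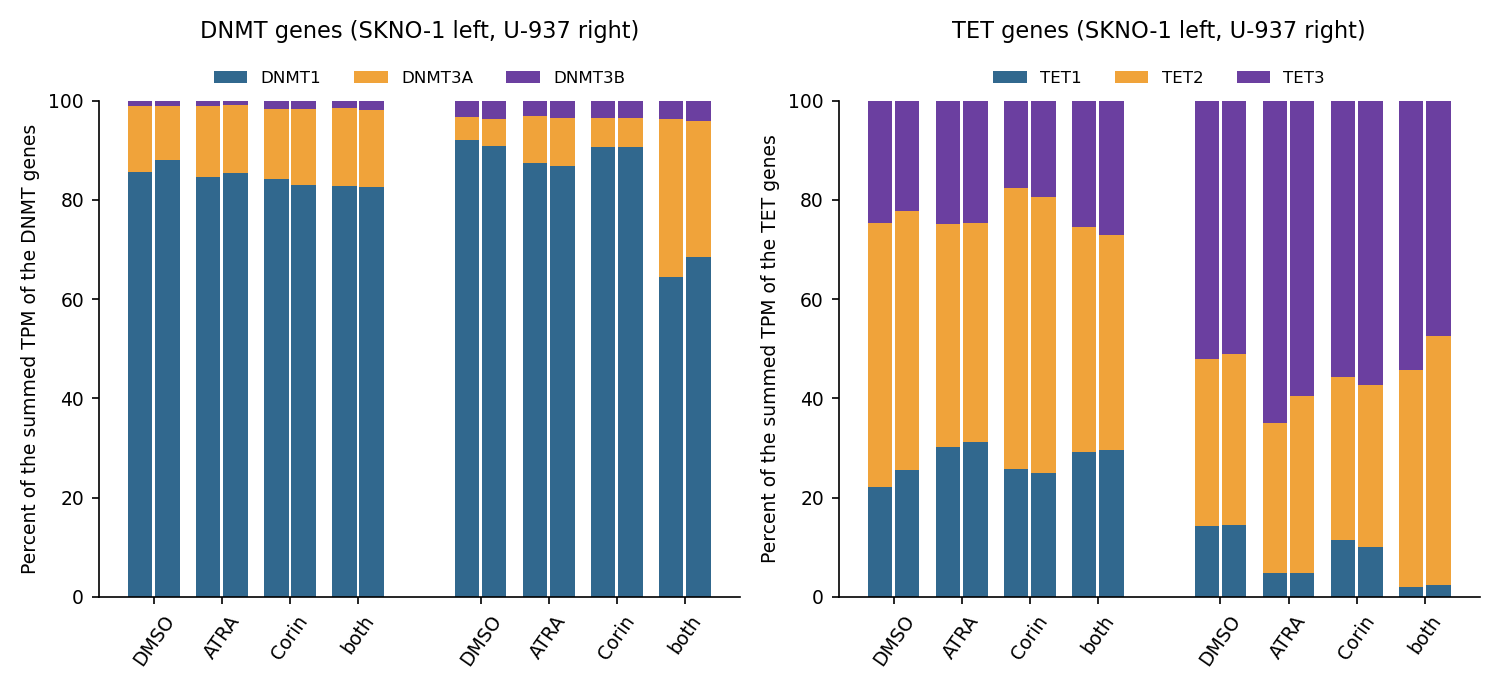
Percent of the summed TPM of DNMT1, DNMT3A and DNMT3B (left) and of TET1, TET2 and TET3 (right) in each of the 16 libraries (1 bar each, pairs are replicates). In U-937 with both agents DNMT3A reaches 31.8 and 27.4% of the DNMT sum and TET1 is down to 2.00 and 2.40% of the TET sum.

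The response to both agents differed between the lines for all 9 genes, tested directly as the effect in U-937 minus that in SKNO-1 (4 higher and 5 lower, against 40.6% of all genes, 17.9% higher and 22.7% lower). The differences were -2.68 for UHRF1 (SE 0.13, adjusted p = 1.23e-11), -2.20 for DNMT1 (SE 0.11), -2.17 for TET1 (SE 0.20), -2.01 for DNMT3B (SE 0.21) and -0.77 for IDH2 (SE 0.16), and 1.74 for TET2 (SE 0.16, adjusted p = 6.59e-08), 1.00 for IDH1 (SE 0.13), 0.59 for DNMT3A (SE 0.13) and 0.49 for TET3 (SE 0.16, adjusted p = 0.0192). TET2 and DNMT3B were called in opposite directions in the lines, TET2 rising in U-937 and falling in SKNO-1 and DNMT3B the reverse. The DNMT3B rise in SKNO-1 was called under 8 of 15 alternatives, and not by DESeq2 or with the GC trend removed. The TET2 changes were called under all 15 in each line. The TET3 difference was not called without SKNO-1 combination replicate 2 or U-937 combination replicate 1 (adjusted p 0.0648 to 0.0832), nor with unscaled library totals (0.33, adjusted p = 0.209).

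For ATRA, 3 members differed upward and 2 downward between the lines (19.4% of all genes, 10.6% and 8.81%). TET1 differed by -1.29 (SE 0.19, adjusted p = 5.98e-05), TET2 by 1.03 (SE 0.16, adjusted p = 0.000140), TET3 by 0.78 (SE 0.16), DNMT3A by 0.48 (SE 0.13, adjusted p = 0.00995) and DNMT1 by -0.33 (SE 0.11, adjusted p = 0.0449). The DNMT1 difference was lost without SKNO-1 DMSO replicate 2, SKNO-1 ATRA replicate 2, U-937 DMSO replicate 1 or U-937 ATRA replicate 2 (adjusted p 0.0622 to 0.0908), without the low-count filter (0.0940) and with the replicate block (0.0803), and that of DNMT3A with unscaled library totals (0.0579) and without SKNO-1 DMSO replicate 1, either SKNO-1 ATRA library, U-937 DMSO replicate 2 or U-937 ATRA replicate 1 (adjusted p 0.0568 to 0.124). The number of members that differed fell furthest without SKNO-1 ATRA replicate 2.

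For Corin, 3 members differed upward and 2 downward (12.8% of all genes, 5.28% and 7.49%). UHRF1 differed by 0.92 (SE 0.12, adjusted p = 4.46e-05), having risen in U-937 and fallen in SKNO-1. IDH1 differed by 0.64 (SE 0.13, adjusted p = 0.00224), IDH2 by 0.53 (SE 0.16, adjusted p = 0.0372), DNMT3B by -0.77 (SE 0.20, adjusted p = 0.0144) and TET1 by -0.61 (SE 0.19, adjusted p = 0.0361). The last 3 were lost without 12, 4 and 8 of the 16 libraries in turn (adjusted p up to 0.195, 0.0705 and 0.144). IDH2 (0.0601) and TET1 (0.0513) were also lost with the replicate block, and TET1 with unscaled library totals (0.0537), while DNMT3A was called with the GC trend removed (-0.33, adjusted p = 0.0241). With 1 library left out, the number of members that differed fell furthest without either SKNO-1 Corin library or U-937 DMSO replicate 2.

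Other genes of the pathway were counted from a list of 34, of which 32 were tested in each line. With both agents in U-937, 12 were higher and 17 lower, where 65.3% of all genes were called, with a median of -0.48 against 0.03 for all genes. The 6 tested genes listed as cofactors of the methyltransferases were all called lower, among them QSER1, which is known instead to shield promoters from new methylation. Of 8 genes listed as readers, not all of which need bind methylated DNA, 6 were called higher and 1 lower. HELLS, a remodeller needed for methylation of packed chromatin, was at 104 and 113 CPM with DMSO and 9.85 and 12.1 with both agents (-3.31, SE 0.13, adjusted p = 6.40e-15). CDCA7, its partner, fell by 2.77 (SE 0.10, adjusted p = 1.10e-16) with both agents and by 0.94 (SE 0.10) with ATRA alone. GADD45G, a stress protein linked to demethylation, had 0 counts over the DMSO libraries and 224 over those with both agents, at least 72.9-fold higher when the DMSO group is set at its floor of 3 counts in all (adjusted p = 1.20e-09). ATRA alone called 8 higher and 10 lower in U-937 (41.8% of all genes called), among them SMUG1, a DNA glycosylase (0.83, SE 0.12), and AHCY, which clears the by-product of methylation (-0.68, SE 0.11). Corin alone (12.9% of all genes called) called 1 higher, the reader MBD2 (0.52, SE 0.10), and 2 lower, QSER1 (-0.36, SE 0.10) and the endonuclease APEX1 (-0.31, SE 0.10).

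In SKNO-1 ATRA (6.76% of all genes called) called 1 gene of the list, APEX1 (0.38, SE 0.06, adjusted p = 0.00940). Corin called 2 higher and 5 lower (37.9% of all genes called), and both agents 5 higher and 10 lower (46.7%), so the shares of the list called in SKNO-1 lie near or below those of all genes. NEIL1, a DNA glycosylase, was at 0.347 and 0.290 CPM with DMSO, 1.88 and 2.47 with Corin and 2.93 and 2.73 with both agents, a change of 2.76 (SE 0.28) and 3.14 (SE 0.27, adjusted p = 7.89e-05) that rests on 23 counts over the DMSO libraries. CXXC4, a partner of TET2, rose by 2.75 with Corin (SE 0.38) and by 1.72 with both agents (SE 0.40), from 40 counts over the DMSO libraries. LIG1, the ligase of DNA replication, fell by 0.71 with Corin (SE 0.16) and QSER1 by 0.72 with both agents (SE 0.17).

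The genes whose pattern was most like that of a member were found by Pearson's r over the 16 libraries, on log2 CPM centred within each line, among 10561 genes. For UHRF1 they were FEN1 (0.99), E2F1 (0.99) and DDX11 (0.99), and for DNMT1 NSD2 (0.99), DDX55 (0.99) and MCM3 (0.99). For TET1 they were COX11, ZNF280C and CCND2 (each 0.99), for IDH2 PXMP2, UQCC2 (each 0.99) and TUBA1B (0.98), and for DNMT3B C5orf34 (0.96), CHRNA5 and NCS1 (each 0.95). For TET2 they were MYD88 (0.97), USP15 and PDP1 (each 0.95), for DNMT3A DCAF5, PTGS1 and ADD1 (each 0.96), for IDH1 PFDN1 (0.95), TRIB1 (0.94) and MDM1 (0.93), and for TET3 PRKRA-AS1 (0.89), MEIS2 (0.88) and BRPF3 (0.88). The libraries share treatments and scaling, so these values describe likeness only. They were not computed within each line, and they need not hold in both. Between members, DNMT1 and UHRF1 had r = 0.98 over the 16 libraries and 0.70 within SKNO-1. DNMT1 and TET1 had 0.90 and -0.63.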

How the data were processed

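The authors deposited, per the file headers, an RSEM estimated count and a TPM value per gene for each library. Trimmomatic, STAR, RSEM, deepTools, DESeq2 and hg38 are named in the submitters' processing notes, and the annotation release is not given in the sources used here. The names of the deposited files mark reads as single-end, whereas the protocol in the labels has paired-end reads. The protocol names a spike-in mix, which was not used here. The effective lengths deposited by the authors were used only as descriptions. The authors' deposited log2 fold changes and adjusted p-values, DESeq2 output per the file headers, are used only for comparison. Counts were rounded, filtered with filterByExpr (17479 genes in SKNO-1, 17717 in U-937, 19872 together), scaled by TMM and tested with the quasi-likelihood F test of edgeR 4.0.16 in R 4.3.3, fitted per line to 8 libraries with no block (4 residual degrees of freedom) and, between lines, in all 16. Benjamini-Hochberg adjustment ran over all genes tested. The fits were tested on simulated data. A floor of 3 counts over a group, for groups at 0, covers counting error only. The alternatives were DESeq2 1.42.0, unscaled library totals, no low-count filter, removal of the GC trend, the replicate block, the 4 libraries compared alone, and leaving out each library. Deviations of same-numbered libraries correlated between groups of a line at -0.49 to 0.42, with no common sign, so the numbers were not taken as pairs. The value of 0.42 was that of U-937 with DMSO and U-937 with both agents. The members and the gene lists were chosen with earlier results of these data known. All members are named. Pathway genes are named by the largest absolute change among called ones, at most 3 per comparison, and like genes by r where the mean CPM reached 5.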

Additional observations from a re-analysis of the deposited data

Results flagged for a closer look

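Effects that differed between the lines by a direct test of the difference (U-937 minus SKNO-1, edgeR, 16 libraries) are the values to look at again. With both agents they were -2.20 for DNMT1, -2.68 for UHRF1, 0.59 for DNMT3A, -2.01 for DNMT3B, -2.17 for TET1, 1.74 for TET2, 0.49 for TET3, 1.00 for IDH1 and -0.77 for IDH2. With ATRA they were -0.33 for DNMT1, 0.48 for DNMT3A, -1.29 for TET1, 1.03 for TET2 and 0.78 for TET3. With Corin they were 0.92 for UHRF1, -0.77 for DNMT3B, -0.61 for TET1, 0.64 for IDH1 and 0.53 for IDH2. The Corin values of DNMT3B, TET1 and IDH2 lost their call under some alternatives. So did the ATRA values of DNMT1 and DNMT3A and the combination value of TET3. The lines also differed in medium, and the median of all genes for the combination was itself -0.11.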

How the results depend on the processing

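Of 2394 member values recomputed under another setting, 2183 kept their side of the threshold and, where called, their direction. Another 134 lost a call, 71 gained one and 6 reversed with a call in either fit. A change of sign between 2 uncalled values was counted as kept. In U-937 with both agents 8 members were called under every setting, against DMSO and against Corin. Reversed values, all in SKNO-1, were TET1 with ATRA (-0.18) and with Corin (-0.18) without DMSO replicate 1 (0.31 and 0.31 without replicate 2), IDH2 with ATRA (-0.24) and its departure from additivity (0.24) without DMSO replicate 2 (0.25 and -0.25 without replicate 1), and DNMT1 with both agents against ATRA with the GC trend removed (-0.17, without and with the replicate block). The cause was not tested. Member counts moved in SKNO-1 as follows. For ATRA they went from 2 to 1 with library totals only, 1 with the replicate block, 0 with the 4 libraries compared alone and 0 to 6 with 1 library left out. For Corin they went from 6 to 3 with 4 libraries and 3 to 9 with 1 left out. For both agents they went from 5 to 3 with DESeq2, 3 with 4 libraries and 3 to 7 with 1 left out. Against ATRA they went from 3 to 5 with GC removed, 6 with block and GC, 6 with 4 libraries and 2 to 6 with 1 left out. Against Corin they went from 3 to 1 with the block, 5 with GC, 5 with block and GC, 5 with 4 libraries and 0 to 5 with 1 left out. Departures went from 0 to 1 without the filter, 1 with GC, 1 with block and GC and 0 to 5 with 1 left out. In U-937 Corin went from 2 to 4 with GC and 0 to 3 with 1 left out. Between lines ATRA, with 5, ranged from 3 to 5 with 1 left out, and Corin from 5 to 3 with the replicate block and 2 to 5 with 1 left out. With a library left out, the lone library of its group is assumed to vary like the others. The counts over all genes in those fits are not given here, so the member ranges show only that calls were not stable. Library totals only shifted the median of all genes by -0.12 in U-937 with both agents, -0.13 against Corin, -0.16 in the line difference and 0.16 between the untreated lines, and removal of GC by 0.13 in the U-937 departures and 0.11 in the line difference. In the authors' deposited table DNMT3A (0.468) and DNMT3B (0.266) had adjusted p-values above 0.05 in SKNO-1 with both agents, as did DNMT3A, DNMT3B, TET3 and IDH1 with Corin (0.250, 0.0591, 0.0617 and 0.0591) and TET2 and IDH1 with ATRA (0.0744 and 0.251), which are all the SKNO-1 members called with ATRA. In U-937 the authors' DESeq2 values were under 0.05 for IDH2 with ATRA (0.0448) and for IDH1 with Corin (0.0219), which edgeR did not call.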

Other observations

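The effective length that RSEM gave DNMT3A, a mean over its transcripts weighted by their estimated shares, was 3435 to 3861 bases in the 8 SKNO-1 libraries and 4846 to 6185 bases in the 8 U-937 libraries, with no overlap. For TET1 it was 9512 bases in every library of both lines, and for UHRF1 it lay between 3737 and 3784 bases in all 16. The DNMT3A values give a difference in transcript make-up between the lines as RSEM estimated it, not a measurement of single isoforms.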
